A study of Homo sapiens with 10 samples.

Results

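BCR, ABL1 and the proteins that carry the signal of their fusion were examined in MEG-01 cells that had been given a miR-1225-3p precursor. The set held 10 genes, namely BCR, ABL1, ABL2, CRK, CRKL, GRB2, GAB2, SOS1, STAT5A and STAT5B, out of 19102 gene symbols that could be matched to the array. They were chosen by name for their place in one signalling route, and every non-control probe whose RefSeq accession belonged to one of them was taken. This gave 17 probes out of 42405, and at least 1 probe for each gene. MEG-01 is an established human megakaryoblastic line from a leukaemia in blast crisis. Both groups were the same line in the same medium, and both were nucleofected with 200 nM of a double-stranded precursor and harvested after 24 hours. One group received the miR-1225-3p precursor and the other a scrambled precursor as control, with 5 biological replicates each and 1 array per replicate. The source label of the scrambled samples says that they were not treated, while their titles say scrambled transfected, and the titles were followed. Transfection was transient, and a reporter plasmid used alongside was not expressed by every cell, so an array may hold RNA of transfected and untransfected cells.

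The Philadelphia chromosome joins the start of BCR on chromosome 22 to most of ABL1 on chromosome 9, and the fused protein is a tyrosine kinase that is always on. MEG-01 carries this rearrangement. The adaptor GRB2 docks on the phosphorylated BCR portion, bringing SOS1, which loads RAS with GTP, and GAB2, which recruits PI3-kinase. CRK and CRKL bind proline-rich stretches of the ABL portion, and CRKL is a main phosphorylated substrate in leukaemic cells. STAT5A and STAT5B are transcription factors that are phosphorylated downstream and drive survival and cell cycle genes. A probe for BCR or ABL1 may read the normal transcript, the fusion or both, and these cannot be told apart here.

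The transfected microRNA is shown because it is the only designed difference between the groups, with its seed, bases 2 to 8, in capitals. The RefSeq table of GRCh38.p14 places it on the minus strand at chr16:2090195-2090216, inside PKD1. The seed occurs in 1 of the 2370 mature human names in that table, that of miR-1225-3p itself. Matches to this seed in the member transcripts were not analysed here.
hsa-miR-1225-3p: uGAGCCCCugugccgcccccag

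The arrays were not alike within the miR-1225-3p group. On the first principal component, which held 69.8% of the variance, the scores of the scrambled arrays ran from 57.13 to 82.89, and replicates 1 to 4 with miR-1225-3p scored -146.9 to -57.15. Replicate 5 scored 63.83, among the scrambled arrays. The level of miR-1225-3p in each culture was not analysed here, so the label of this array was not checked, and every mean and fold over the 5 miR-1225-3p arrays includes it. Its value is therefore given for each member, and the member and list counts are given with and without it. Between 41.95% and 61.18% of spots were well above background on an array, and no spot was saturated. The arrays lay on 2 slides of 5, each with both groups, and values within a slide are given beside the called members. Slide 2 alone, with replicate 5 among its 3 miR-1225-3p arrays, gave 0 calls by limma and 1395 probes with an unadjusted p under 0.05. Of the megakaryocyte markers, 7 of 11 were well above background on all 10 arrays, whereas PF4, a platelet chemokine, was on none.

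Across the array, 7225 of 20648 tested probes (35.0%) differed between the groups at an adjusted p under 0.05 from limma, and such a probe is called changed here. Of all tested probes, 16.3% were higher with miR-1225-3p and 18.7% were lower. The members have to be read against this wide response. Testing required a signal well above background on 3 or more arrays in at least 1 group, and 12 of the 17 member probes met this, for 9 of the 10 genes. Of these 12 probes, 5 were changed, or 41.7%. BCR and STAT5B rose, and GRB2, ABL1 and STAT5A fell. CRKL, SOS1, GAB2 and all 3 tested ABL2 probes did not pass the test. The median log2 fold change of the 12 probes was -0.36, against -0.09 over all tested probes. In 1 of the 12, a BCR probe, the groups did not overlap, against 12.6% of all tested probes. In these bulk samples, fewer cells with a transcript and less of it per cell cannot be told apart.

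**Figure D1:**
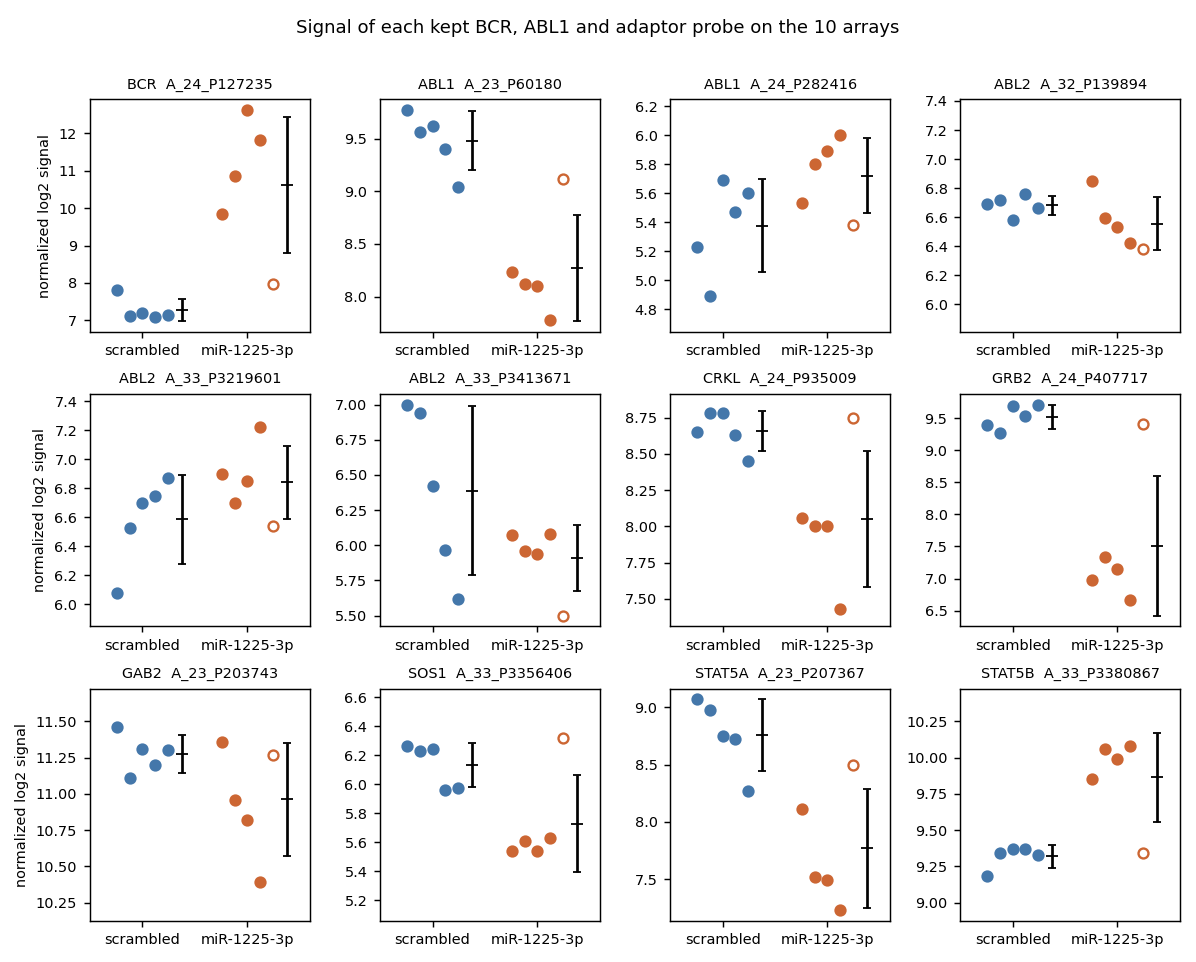
Normalized log2 signal (vertical axis) of each tested member probe on the 5 miR-1225-3p and 5 scrambled arrays, 1 point per array, with bars for the group mean ± SD and an open circle for miR-1225-3p replicate 5. BCR lies higher on every miR-1225-3p array, while in GRB2, ABL1 and STAT5A replicate 5 lies with the scrambled arrays.

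BCR, the scaffold and GTPase regulator that lends its first part to the fusion, showed the strongest rise among the members. On its tested probe (A_24_P127235) the normalized log2 signal was 9.85, 10.87, 12.62, 11.81 and 7.96 in miR-1225-3p replicates 1 to 5. In scrambled replicates 1 to 5 it was 7.81, 7.13, 7.21, 7.09 and 7.15. All 5 miR-1225-3p values lay above all 5 scrambled values, although replicate 5 exceeded the highest control only narrowly. The means were 10.62 ± 1.81 and 7.28 ± 0.30 (SD, n = 5 each), a log2 fold change of 3.34 (SE 0.73), or 10.1-fold, with an adjusted p of 0.0155 from limma. The exact two-sided permutation p was 0.00794, the smallest that 5 against 5 arrays allow. Only 29 tested probes of the array had a higher log2 fold change. The rise was 2.97 within slide 1 and 3.68 within slide 2, and 4.01 without replicate 5.

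The other BCR probes did not show this rise. A_24_P873764 was well above background on 2 arrays of each group, with log2 signals of 5.29, 5.20, 4.85, 5.07 and 3.45 with miR-1225-3p and 4.57, 3.51, 4.99, 4.90 and 4.07 with the scrambled precursor. A_32_P56713 had no miR-1225-3p array and 1 scrambled array well above background. All 3 probes carry the same BCR accession in the array design. Both dim probes fell below the threshold for testing, so the rise of BCR rests on 1 probe printed as 1 spot per array. The paper's methods list a qRT-PCR assay for BCR, but BCR is not among the candidate genes it reports as differing by qRT-PCR.

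ABL1, the kinase partner, fell on its brighter probe. A_23_P60180 gave log2 signals of 8.23, 8.12, 8.10, 7.78 and 9.12 in miR-1225-3p replicates 1 to 5. The scrambled arrays gave 9.77, 9.56, 9.62, 9.40 and 9.04. Replicates 1 to 4 lay below every control, and replicate 5 lay above scrambled replicate 5. The log2 fold change was -1.21 (SE 0.25), a 2.31-fold lower signal, with an adjusted p of 0.0146 (limma) and an exact permutation p of 0.0159. It was -1.30 within slide 1, -1.15 within slide 2 and -1.42 without replicate 5.

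A second ABL1 probe, A_24_P282416, belongs to the accession of another ABL1 transcript variant and was much closer to background. In all, 4 miR-1225-3p and 3 scrambled arrays were well above background, with log2 signals of 5.53, 5.80, 5.89, 6.0 and 5.38 against 5.23, 4.89, 5.69, 5.47 and 5.60. The groups overlapped, and the log2 fold change of 0.34 had a 95% interval from -0.08 to 0.77 and limma gave an adjusted p of 0.167. The fall of ABL1 was therefore measured on 1 of its probes, while the other gave no call in either direction.

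ABL2, the ABL1 relative that also binds actin, was not called on any of its 3 tested probes. A_32_P139894 ranged from 6.38 to 6.85 with miR-1225-3p and from 6.58 to 6.76 in the controls, a log2 fold change of -0.13 with a 95% interval from -0.41 to 0.15. For A_33_P3219601 it was 0.26, with an interval from -0.16 to 0.67. For A_33_P3413671 it was -0.48, with an interval from -1.08 to 0.13. These intervals leave room for changes of modest size in either direction. The fourth probe, A_33_P3413667, was well above background on 1 array only.

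Among the adaptors, GRB2, the bridge from receptors and the fusion to RAS, changed most. Its probe A_24_P407717 gave log2 signals of 6.98, 7.34, 7.15, 6.67 and 9.41 in miR-1225-3p replicates 1 to 5. The scrambled arrays gave 9.40, 9.27, 9.69, 9.53 and 9.71. Replicates 1 to 4 lay far below every control, while replicate 5 fell within the control range. The means were 7.51 ± 1.09 and 9.52 ± 0.19 (SD, n = 5 each). The log2 fold change of -2.01 (SE 0.45), or 4.03-fold lower, had an adjusted p of 0.0158 from limma and an exact permutation p of 0.0238. It was -2.44 within slide 1, -1.65 within slide 2 and -2.48 without replicate 5. A larger fall was not rare on this array, being found in 873 tested probes.

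SOS1, the exchange factor that GRB2 carries to RAS, was dim and not called. Its tested probe A_33_P3356406 gave 5.54, 5.61, 5.54, 5.63 and 6.32 with miR-1225-3p and 6.26, 6.23, 6.24, 5.96 and 5.97 with the scrambled precursor. Replicates 1 to 4 lay below every control and replicate 5 above them all. The log2 fold change was -0.40 (SE 0.18, adjusted p = 0.0923 from limma), and without replicate 5 it was -0.55 with an adjusted p of 0.00293. The second SOS1 probe, A_23_P343808, had no miR-1225-3p array and 2 scrambled arrays well above background. It ranged from 2.46 to 3.28 and from 3.44 to 4.92, which near background gives no fold.

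GAB2, the scaffold that recruits PI3-kinase to the complex, held a high signal in both groups. The log2 signals of A_23_P203743 were 11.36, 10.96, 10.82, 10.39 and 11.27 with miR-1225-3p and 11.46, 11.11, 11.31, 11.20 and 11.30 in the controls. The groups overlapped, and the log2 fold change of -0.31 had a 95% interval from -0.73 to 0.11 and limma gave an adjusted p of 0.209. Its sign turned to 0.16 when arrays were scaled by their 75th percentile.

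CRKL, the ABL-binding adaptor, lay just outside the threshold. A_24_P935009 gave 8.06, 8.0, 8.0, 7.43 and 8.75 with miR-1225-3p and 8.65, 8.78, 8.78, 8.63 and 8.45 with the scrambled precursor. Replicates 1 to 4 lay below every control and replicate 5 inside the control range. The log2 fold change was -0.61 (SE 0.22), with an adjusted p of 0.0513 from limma and an exact permutation p of 0.0317. It passed in 6 of 25 alternative settings, including the authors' own normalized values (adjusted p = 0.0412) and the fit without replicate 5 (-0.78, adjusted p = 0.00248). CRK, its close relative, was represented by 1 probe that was well above background on 2 arrays of each group and was not tested. Its log2 signals ranged from 2.72 to 4.59 with miR-1225-3p and from 3.26 to 5.17 in the controls.

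The STAT5 genes, transcription factors that end this route in the nucleus, moved in opposite directions. STAT5A fell on A_23_P207367, with log2 signals of 8.11, 7.52, 7.49, 7.23 and 8.50 against 9.07, 8.98, 8.75, 8.72 and 8.27 in the controls. STAT5B rose on A_33_P3380867, with 9.85, 10.06, 9.99, 10.08 and 9.34 against 9.18, 9.34, 9.37, 9.37 and 9.33. In both genes replicates 1 to 4 lay outside the control range and replicate 5 inside it.

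The log2 fold change of STAT5A was -0.99 (SE 0.26), with an adjusted p of 0.0218 from limma and an exact permutation p of 0.0159. It was -0.88 within slide 1, where the adjusted p was 0.093, and -1.10 within slide 2. Its call was also lost without miR-1225-3p replicate 2 (adjusted p = 0.0584) or replicate 3 (0.0562). STAT5B rose by 0.54 (SE 0.16), with an adjusted p of 0.0292 from limma and an exact permutation p of 0.0317. This was the least stable of the member calls, since leaving out any single array other than miR-1225-3p replicate 5 or scrambled replicate 5 took it past the threshold, with an adjusted p of up to 0.0753. It rose by 0.66 within slide 1 and 0.45 within slide 2.

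The difference between these log2 fold changes was 1.53, and 1.85 without replicate 5. It is a description, since the pair was taken after the opposite directions were seen. STAT5A and STAT5B lie next to each other on chromosome 17, where their RefSeq genes share 932 bases. BCR and CRKL, both on chromosome 22, had log2 fold changes of 3.34 and -0.61.

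**Figure D2:**
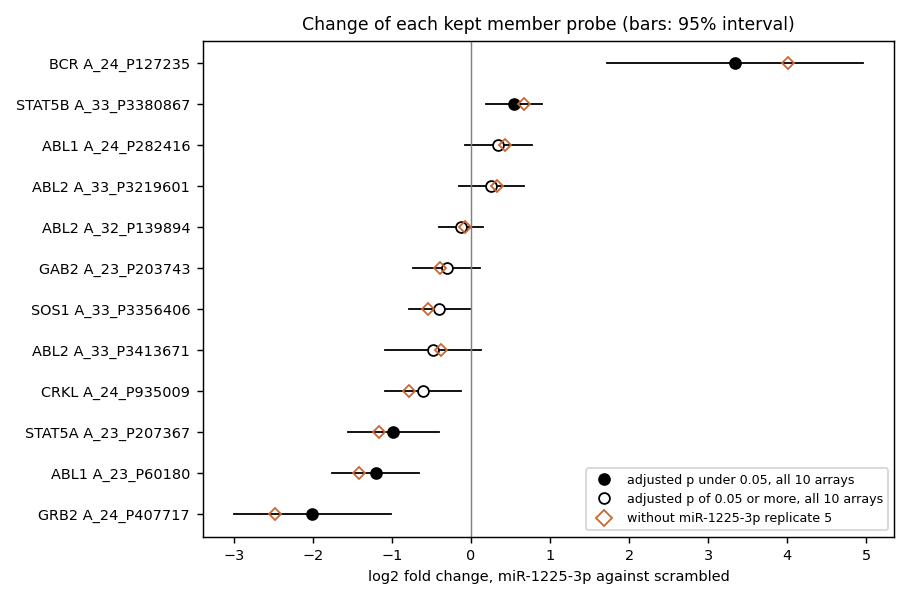
Log2 fold change of each tested member probe, miR-1225-3p minus scrambled (horizontal axis), as a circle, filled where called, with its 95% interval from limma over all 10 arrays and a diamond for the value without replicate 5. BCR at 3.34 and GRB2 at -2.01 stand at either end, and the values without replicate 5 lie farther from 0 for all 5 called probes.

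Replicate 5 of the miR-1225-3p group bore on nearly all of these values. It lay inside the range of the scrambled arrays for 8 of the 12 tested member probes, and for 4 of the 5 called ones, BCR being the exception. Without it 7 of the 12 were called, CRKL and SOS1 joining those that fell, where 55.8% of all tested probes were called. The groups then did not overlap for 7 of the 12, against 46.0% of all tested probes. Without miR-1225-3p replicate 2 or replicate 3, 3 member probes were called, where 11.0% and 12.4% of all tested probes were.

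**Figure D3:**
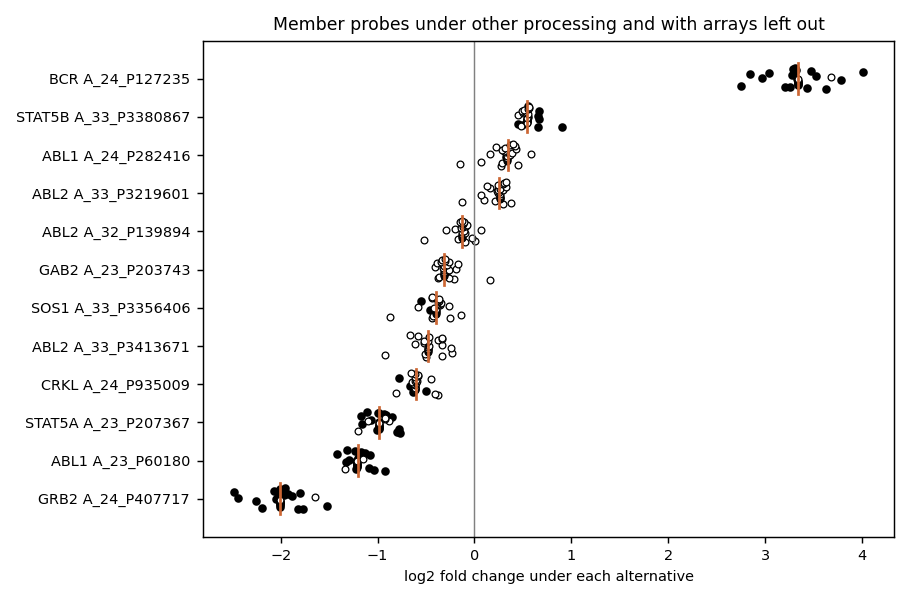
Log2 fold change of each tested member probe (horizontal axis) under each of up to 25 alternative settings, 1 circle per setting and filled where the adjusted p was under 0.05, with the reported value as a vertical tick. BCR, GRB2, ABL1, STAT5A and STAT5B kept their sign throughout, whereas GAB2, 1 ABL1 and 2 ABL2 probes crossed 0.

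The transcripts most like BCR and GRB2, the members with an absolute log2 fold change over 2, were found by Pearson correlation over the 10 arrays among 14958 tested probes with a symbol. For BCR these were ACKR5 (r = 0.993), SLC51B (0.993), NUDCD3 (0.992), BICC1 (0.992) and CLCN5 (0.992), whose own log2 fold changes ran from 0.81 to 3.85. For GRB2 they were MB21D2 (r = 0.994), GNAS (0.993), AP1S1 (0.993), ALDOC (0.992) and TSC22D4 (0.992), with log2 fold changes from -1.53 to -1.0. Since the 10 arrays fall into clusters on the first principal component, these values are a description only.

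The wider route was examined in 5 lists holding 70 further genes and 92 probes, of which 82 were tested. Of these, 42 were changed, or 51.2% against 35.0% of all tested probes, with 5 higher and 37 lower. The calls included 22 falls of more than 2-fold and no rise of that size. Over all tested probes, 12.4% were called falls and 5.53% called rises of more than 2-fold. The median log2 fold change of the 82 probes was -0.66. Falls made up 88.1% of the calls in these lists, and 73.0% when arrays were scaled by their 75th percentile. Over all called probes the same scaling moved the share of falls from 53.6% to 38.9%, and the median log2 fold change of all tested probes from -0.09 to 0.11.

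The count of 42 changed with the arrays used, as did the share called over all tested probes. It was 54 without miR-1225-3p replicate 5, where 65.9% of the list probes and 55.8% of all probes were called. It was 11 without miR-1225-3p replicate 2 (13.4% against 11.0%), 14 without replicate 3 (17.1% against 12.4%) and 23 without replicate 4 (28.0% against 19.8%). Leaving out scrambled replicate 1 or 2 gave 24 (29.3% against 19.4% each time). Leaving out scrambled replicate 3 or 4 gave 17 (20.7%, against 18.1% and 17.1%). Of the 22 called falls of more than 2-fold, 7 were called whichever single array was left out. STAT3, WASF2, BCL2L1, MAPK3, DUSP6 and PIK3CG were among them. All 22 were called without miR-1225-3p replicate 5. Of the 10 fits with 1 array left out, PIM1, HRAS and DOK2 were called in 3 each. CCND2, MAP2K2, ABI2, AKT2 A_23_P208870, SHC1 A_24_P68585 and CTTN A_33_P3392921 were called in 2 each and TYK2 in 1.

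Many of these 22 probes were dim in the miR-1225-3p group. For 8 of them fewer than 3 miR-1225-3p arrays were well above background, so that they were tested through the scrambled arrays alone and had to be lower, and their log2 fold changes are set against background. With normexp background correction the 22 log2 fold changes ran from -2.84 to -0.01, 15 of them moved by over 1.5 times, and 17 were called, 3 of which were among those 8. The sizes below are therefore given with the normexp value where a probe was near background.

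In the RAS-ERK branch, the kinase relay that SOS1 opens, 14 of 21 tested probes changed, or 66.7% against 35.0% of all tested probes. The calls were 12 lower and 2 higher. The list's median log2 fold change was -0.79, or -0.57 with normexp and -0.72 over the 17 probes well above background on all 10 arrays. NRAS, a RAS GTPase, fell on both probes, with log2 fold changes of -2.98 (adjusted p = 0.0183 from limma, -1.77 with normexp) and -0.72 (0.0379). MAPK3, the kinase ERK1, fell by 1.85 (adjusted p = 0.0163), or -0.89 with normexp. SHC1, the adaptor that recruits GRB2, fell on the probe A_23_P200443, at -0.90 with no overlap between the groups. Its other probe, at -1.45, had 1 miR-1225-3p array well above background and was not called with normexp (-0.38, adjusted p = 0.0998 from limma). HRAS was lower at -1.31, as was MAP2K2, one of the kinases that activate ERK, at -1.17.

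DUSP6, an ERK phosphatase whose transcript is known to be raised by ERK activity, also fell. Its log2 signals were 12.82, 12.80, 11.95, 12.19 and 13.12 with miR-1225-3p and 13.76, 13.94, 14.06, 13.93 and 13.84 with the scrambled precursor. All 5 miR-1225-3p values lay below all controls, and the log2 fold change was -1.33 (adjusted p = 0.0144 from limma). BRAF, a kinase that RAS activates, rose by 0.90 (adjusted p = 0.0179).

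Of the JAK-STAT partners and STAT5 target genes, 10 of 15 tested probes changed, or 66.7% against 35.0% of all tested probes. The calls were 9 lower and 1 higher, and the list's median log2 fold change was -1.22. Over the 9 probes well above background on all 10 arrays it was -0.42, and with normexp -0.56. CCND2, a cyclin that is a known STAT5 target, showed the widest span. Its log2 signals were 8.59, 4.52, 4.00, 2.96 and 10.78 with miR-1225-3p and 10.69, 10.71, 10.81, 10.46 and 10.92 in the controls. Replicates 2 to 4 were far lower, replicate 1 was between, and replicate 5 lay in the control range. The log2 fold change was -4.55 (adjusted p = 0.0284 from limma), or -2.84 with normexp, and 3 of the 5 miR-1225-3p arrays were well above background for CCND2. It was called in 2 of the 10 fits with 1 array left out, with an adjusted p of up to 0.0709 from limma.

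PIM1, a survival kinase and STAT5 target, gave 14.59, 13.46, 12.49, 12.42 and 14.64 with miR-1225-3p and 15.32, 15.13, 14.92, 15.14 and 14.88 in the controls. Its groups did not overlap, and the log2 fold change was -1.56 (adjusted p = 0.0268 from limma). BCL2L1, which codes for the survival protein BCL-XL, was at -2.24 (adjusted p = 0.016) with 1 miR-1225-3p array well above background, and at -0.67 with normexp (adjusted p = 0.0262). STAT3 was called lower on both probes. They were at -2.60 and -1.22, with 1 and 4 miR-1225-3p arrays well above background, and at -0.68 and -0.56 with normexp. The kinase TYK2, at -2.58 with 2 such arrays, was not called with normexp (-0.95, adjusted p = 0.0847). JAK2, the cytokine receptor kinase that phosphorylates STAT5, rose by 0.70 (adjusted p = 0.0218), with no overlap between the groups. CISH and SOCS2, feedback inhibitors that STAT5 also drives, were not called, at -0.17 and 0.13.

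In the PI3K-AKT branch, which GAB2 feeds, 8 of 18 tested probes changed, or 44.4% against 35.0% of all tested probes. The calls were 7 lower and 1 higher. The list's median log2 fold change was -0.63, or -0.30 with normexp and -0.39 over the 11 probes well above background on all 10 arrays. FOXO3, a transcription factor held back by AKT, fell by 2.06 on 1 probe (adjusted p = 0.0193 from limma, -1.04 with normexp) and was not called on the others, at -0.13 and -0.09. PDPK1, the kinase that activates AKT, was at -1.65 on a probe with 1 miR-1225-3p and 3 scrambled arrays well above background, which normexp put at -0.01 (adjusted p = 0.981), and was not called on the other, at -0.39. PIK3CG, a catalytic subunit of PI3-kinase, fell by 1.24 (adjusted p = 0.0183), or -0.64 with normexp. AKT2 had probes called in both directions, at -1.09 and 0.91. AKT1, at -0.82, did not pass.

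Of the kinases, phosphatases and ligases that act on ABL, 3 of 10 tested probes changed and all fell, with LYN at -0.69, FYN at -0.85 and PTPN1 at -0.41, the first pair being SRC-family kinases and the last a phosphatase. When arrays were scaled by their 75th percentile, 1 probe of this list was called and it was higher, and the list's median went from -0.43 to -0.10. Of the actin partners of ABL and CRK, 7 of 18 tested probes changed, 6 lower and 1 higher, with a median of -0.40, or -0.07 under that scaling. WASF2, a driver of actin branching, was lower at -2.39 (adjusted p = 0.0164 from limma), as was ABI2, an ABL-binding partner of the WASF complex, at -1.31 (-0.59 with normexp). DOK2, a docking protein phosphorylated by the fusion, was at -2.35 with 2 miR-1225-3p arrays well above background and was not called with normexp (-0.80, adjusted p = 0.0504). CTTN, an actin-binding ABL substrate, rose by 0.90 on A_33_P3310780 with no overlap between the groups. Its other probe, at -1.45, was well above background on 1 miR-1225-3p and 3 scrambled arrays and was at -0.26 with normexp (adjusted p = 0.107). These lists lay nearer the background of 35.0% than the others did, at 30.0% and 38.9% called.

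**Figure D4:**
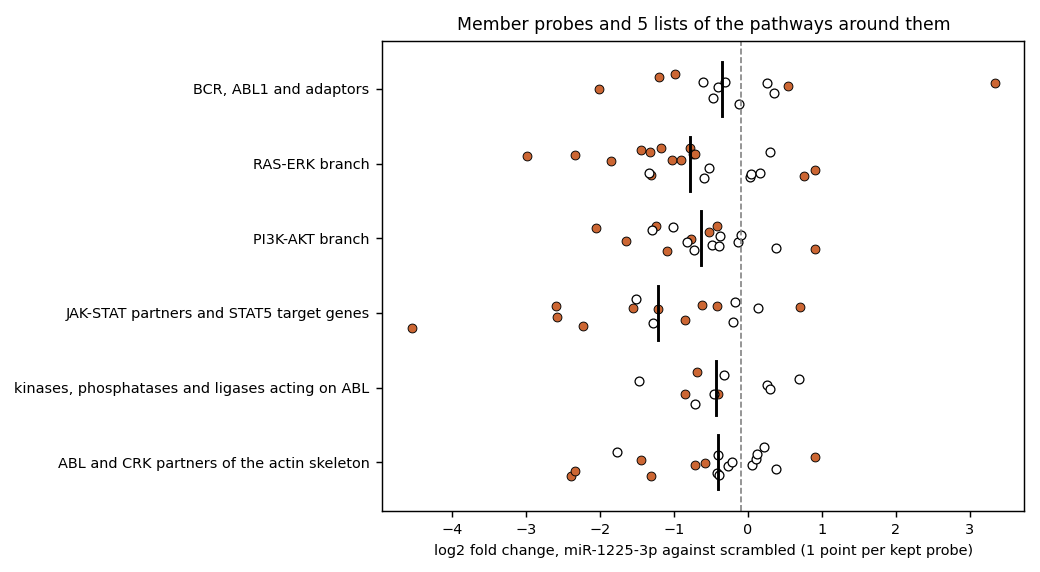
Log2 fold change (miR-1225-3p minus scrambled) of each tested probe in the members and the 5 pathway lists, 1 point per probe, filled where called, with each list's median as a solid line and the median of all tested probes (-0.09) as a dashed line. The medians run from -1.22 in the JAK-STAT list to -0.36 in the members.

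Without miR-1225-3p replicate 5, 55.8% of all tested probes were called. The calls then numbered 15 of 21 in the RAS-ERK branch, 13 of 18 in the PI3K-AKT branch and 12 of 15 in the JAK-STAT list. They numbered 5 of 10 among the regulators of ABL and 9 of 18 among the actin partners.

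Some cell type markers also differed between the groups. Of the tested probes, 33.3% were called among megakaryocyte, 25% among lymphocyte, 50% among monocyte and granulocyte and 20% among fibroblast and epithelial markers. Over all tested probes the share was 35.0%. Of the megakaryocyte markers, 3 of 9 tested probes fell (18.7% over all tested probes), among them ITGA2B, the integrin chain of platelets, at -1.39 (adjusted p = 0.0439 from limma), and the summed linear signal of the list was 7710 to 9370 with miR-1225-3p against 10900 to 12500. Of the lymphocyte markers, 1 of 4 tested probes rose, against 16.3% of all tested probes, namely CD3E at 1.96. CD3E was well above background on 3 miR-1225-3p arrays and 1 scrambled array. It was thus tested through the miR-1225-3p arrays alone and had to be higher, with a fold set against background. The other tested probes were not called, with CD79A at -1.47, CD79B at -0.73 and CD3D at -0.13. CD2 and MS4A1 were well above background on no array. The summed signals were 4000 to 6130 and 5120 to 11100. Of the monocyte and granulocyte markers, 3 of 6 tested probes rose, against 16.3% of all tested probes, namely FCGR3A at 1.35, S100A8 at 1.08 and MPO at 0.80, with summed signals of 750 to 1200 against 608 to 774. Of the fibroblast and epithelial markers, 1 of 5 tested probes rose, against 16.3% of all tested probes, namely EPCAM at 0.90. The sums were 9870 to 14300 with miR-1225-3p against 8920 to 10200. EPCAM, KRT8 and KRT18 were well above background on all 10 arrays, while COL1A2, COL3A1, DCN and CDH1 were on none. The part of these markers in the results above was not tested.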

How the data were processed

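Gene expression was measured on 10 one-colour Agilent arrays, 1 for each of 5 miR-1225-3p and 5 scrambled MEG-01 cultures, which the labels call biological replicates. The deposited scanner files come from Agilent Feature Extraction (10.7.3.1 in the submitters' processing notes) and give each spot a processed intensity, corrected for background by the authors, beside flags for outlier spots and spots well above background. They also deposited normalized log2 values for 29271 probes, which were used as an alternative.

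From the scanner output, 4259 control spots were left out, and cyclic loess (fast method, 3 iterations) was applied to log2 processed signals with limma 3.58.1 (R 4.3.3). Spots with outlier flags were dropped after this step, and the remaining spots of a probe were averaged. Each probe was tested apart by lmFit and eBayes with Benjamini-Hochberg adjustment over 20648 probes, and single probes also by an exact two-sided permutation test. Other normalizations, normexp background correction (offset 50), the replicate number as a block, the slide, the filter, array weights, the methods' t-test and single arrays left out were tried as alternatives. The test of each probe did not treat replicate numbers as pairs. Gene symbols were found for 24910 of 42405 probes through their accession in RefSeq's table for GRCh38.p14, and no gene coordinates are given since the array design is of another build. Precision is limited by the number of arrays.

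The members and lists were chosen with earlier results of these data known. Named genes are all members, list genes called with an absolute log2 fold change over 1, and the 5 genes most correlated with each member past 2. Counts cover whole lists, of which a few genes are not reported here by name. Other genes named were chosen after their values were seen. The calculation was tested on simulated data.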

Additional observations from a re-analysis of the deposited data

Results flagged for a closer look

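In 11 of 74 groups of 5 arrays examined, over the members and the list probes reported for a change of more than 2-fold, 1 array lay far from the other 4 of its group. Chance gives about 1 in 20, or 3.7 groups. Of the 11, 7 were on miR-1225-3p replicate 5. On that array GRB2 gave a log2 signal of 9.41 where the other miR-1225-3p arrays gave 6.67 to 7.34. SOS1 A_33_P3356406 gave 6.32 beside 5.54 to 5.63. ABL2 A_33_P3413671 gave 5.5 beside 5.94 to 6.08, and the dim BCR probe A_24_P873764 gave 3.45 beside 4.85 to 5.29. From the lists, STAT3 A_23_P100795 gave 6.15 beside 2.85 to 3.63 and BCL2L1 gave 6.42 beside 3.64 to 3.83. CTTN A_33_P3392921 gave 5.39 beside 2.78 to 3.28, and on the same probe scrambled replicate 2 gave 3.89 beside 5.17 to 5.34.

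Among the scrambled arrays, replicate 1 stood apart for 2 members that rose with miR-1225-3p. It was the highest for BCR A_24_P127235, at 7.81 beside 7.09 to 7.21, and the lowest for STAT5B, at 9.18 beside 9.33 to 9.37. Scrambled replicate 2 gave 5.44 for the dim BCR probe A_32_P56713, beside 2.22 to 2.89.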

How the results depend on the processing

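BCR and GRB2 were called in 23 of 25 alternatives, ABL1 on A_23_P60180 in 22, STAT5A in 19 and STAT5B in 13, all without a change of sign. The member count of 5 was 2 without normalization between arrays, 9 with array weights, and 3 to 7 with 1 array left out. The list count of 42 was 8 without normalization, 20 when dim probes were not filtered out, 71 with array weights, and 11 to 54 with 1 array left out. The count over all probes, 7225, was 1224, 4014 and 14673 under these settings, and 2280 (without miR-1225-3p replicate 2) to 11524 (without replicate 5) with 1 array left out. Falls were 42.6% of all calls with quantile normalization and 85.8% without normalization. Under the replicate block, 0 probes, 0 members and 0 list probes were called by limma, while 8994, 6 and 51 had an unadjusted p under 0.05. Within slide 2 limma also called 0, 0 and 0, with 1395, 1 and 6 at an unadjusted p under 0.05. The methods' t-test over all 10 arrays, without a block and with Benjamini-Hochberg adjustment, called 5481, 5 and 32. Deviations from the group means of same-numbered arrays had correlations from -0.401 to 0.0586, which gave no sign of pairing. This check cannot exclude pairing, since the wide spread within the miR-1225-3p group could hide it. Among values not called, ABL1 A_24_P282416 turned to -0.15 and ABL2 A_33_P3219601 to -0.13 without normalization, ABL2 A_32_P139894 to 0.01 with quantile normalization and 0.07 within slide 1, and GAB2 to 0.16 under the 75th percentile. The cause of these shifts was not tested. Signal over background limited CRK and both dim BCR probes.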
